A study of Mus musculus with 4 samples.

Results

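The genes described here are 40 antiviral effectors of the interferon response, chosen by name from a list of well-known interferon-stimulated genes. Earlier results of these data were known when the choice was made, so the list is not independent of them. All 40 of 40 listed genes were found in both deposited tables, which hold 15394 genes for unstimulated and 15310 genes for stimulated dendritic cells. The cells were bone marrow-derived dendritic cells (BMDCs) of C57BL/6 mice aged 8 weeks, either wild type (WT) or GOLPH2-/- (KO), and GOLPH2 is a Golgi membrane protein encoded by Golm1. Cells from either genotype were kept without stimulus (WT-con and KO-con) or received IFN-gamma for 16 h and then LPS for 4 h (WT-I+L and KO-I+L), which gave 4 libraries, 1 per group. Every cell, KO or WT, is of the C57BL/6 strain, whose Mx genes are known to be defective. Neither the number of mice behind a library nor the part of Golm1 that the allele lacks was stated in the labels.

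Interferons act through cell surface receptors and JAK kinases. Signals of type I interferon end at the interferon-stimulated response element (ISRE) in promoters, and those of IFN-gamma mainly at the gamma-activated site (GAS). LPS, sensed by TLR4, makes dendritic cells release type I interferon, which then acts back on the same cells. The genes induced in this way code for proteins that bind or degrade viral RNA, block entry or release of virus, deplete nucleotides or edit nucleic acids.

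The tables hold ratios and not levels, so values below are log2 of KO over WT. They are centred on the ratio at which the authors' test finds no difference. Errors given as ± are counting standard errors (SE) derived from the authors' p-values and cover the sampling of reads only. The word called is used for a gene with an adjusted p (Benjamini-Hochberg, over its whole table) under 0.001. A call compares 2 libraries and not 2 conditions, and no ratio has a replicate check. Since the cells were sequenced in bulk, fewer responding cells and less RNA per responding cell cannot be told apart.

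Golm1 itself was at −2.09 (SE at most 0.098) in unstimulated and −1.9996 ± 0.10 in stimulated cells. All 11 of 11 conventional dendritic cell markers were listed in both tables. Among them Itgax, which codes for CD11c, was at 0.32 (SE at most 0.015) and 0.29 ± 0.017. A listing does not check the cell label, because all 7 fibroblast and all 6 lymphocyte markers were listed in both too. Of the 11 dendritic cell markers, 6 were called higher in unstimulated and 5 in stimulated cells, with 0 called lower. Their list medians were 0.09 and 0.08. Of all genes, 4.70% and 5.36% were called higher in the 2 states, and 4.27% and 6.54% lower. Of 7 plasmacytoid dendritic cell markers 6 were listed, and Siglech was in neither table. In unstimulated cells 1 of the 6 was called, Bst2, which was higher and is itself one of the 40 members, and in stimulated cells 0 were called. Fibroblast markers were higher in the KO libraries, with 3 of 7 called higher in unstimulated cells (list median 0.86) and 5 of 7 in stimulated cells (2.77, from 0.17 to 6.27). Macrophage and monocyte genes numbered 9 in the tables, with 5 called higher and 1 lower in each state. Neutrophil markers had 2 of 6 called lower in unstimulated and 1 of 5 in stimulated cells, and lymphocyte markers had 0 of 6 called and 1 of 6 called higher. The part of these cell types in the ratios of the antiviral genes was not tested.

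Promoters of 5 members are shown to make visible where the ISRE, a known element of the interferon response, occurs in them. These are the 3 members with the lowest ratios in stimulated cells whose promoter holds the core of the ISRE (GAAA, any 2 bases, GAAA), and the 2 with ratios closest to 0. Each is the 200 bases that end just before the start site, on the strand of the gene, from RefSeq (GRCm38.p6); capitals mark this core on either strand. Ifit3 is at chr19:34583329-34583528 on the plus strand, Ifit1 at chr19:34640689-34640888 on the plus strand, Rsad2 at chr12:26456453-26456652 on the minus strand, Bst2 at chr8:71537473-71537672 on the minus strand and Ifitm3 at chr7:141010745-141010944 on the minus strand.
Ifit3: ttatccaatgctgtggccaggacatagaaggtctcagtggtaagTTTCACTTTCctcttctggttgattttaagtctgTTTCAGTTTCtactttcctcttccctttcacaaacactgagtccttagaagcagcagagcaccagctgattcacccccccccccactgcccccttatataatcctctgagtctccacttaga
Ifit1: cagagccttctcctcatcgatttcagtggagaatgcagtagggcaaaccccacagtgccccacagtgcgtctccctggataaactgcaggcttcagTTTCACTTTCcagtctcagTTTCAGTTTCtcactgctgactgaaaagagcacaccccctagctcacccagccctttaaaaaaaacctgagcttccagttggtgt
Rsad2: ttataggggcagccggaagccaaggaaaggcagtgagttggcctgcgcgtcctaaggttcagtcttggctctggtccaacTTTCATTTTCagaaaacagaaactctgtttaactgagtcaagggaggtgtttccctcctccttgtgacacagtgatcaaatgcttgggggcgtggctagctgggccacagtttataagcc
Bst2: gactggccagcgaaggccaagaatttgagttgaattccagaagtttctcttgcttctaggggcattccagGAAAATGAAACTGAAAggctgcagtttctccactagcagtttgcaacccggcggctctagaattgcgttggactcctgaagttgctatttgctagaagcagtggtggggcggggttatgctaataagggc
Ifitm3: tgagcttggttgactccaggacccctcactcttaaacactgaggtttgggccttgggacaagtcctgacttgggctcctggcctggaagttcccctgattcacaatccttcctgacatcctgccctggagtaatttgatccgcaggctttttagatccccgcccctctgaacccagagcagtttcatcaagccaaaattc
Ifit3 and Ifit1 each carry the element 2 times in this window, on the strand opposite to the gene, and Rsad2 carries it 1 time. Bst2 carries 2 overlapping copies on its own strand, and in Ifitm3 no copy was found before the start and 2 lie after it. Ifit1 and Bst2, which had unlike ratios after stimulation (below), thus share the element, with its outer end 104 and 130 bases before the start.

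After IFN-gamma and LPS the antiviral genes stood lower in KO than in WT, led by the Ifit genes, Cmpk2, Mx2 and Rsad2 at about the level that a 2-fold drop gives. All 40 ratios were below 0, against 48.9% of all genes in the table. Those of Bst2, Ifitm3 and Ifitm1 lay within their counting SE of 0, so their sign is not settled. The members' median was −0.40, and the median gene was at 0.01. By size, 12 of 40 members were lower by 1.5-fold or more and 0 higher, where 6.79% of all genes were lower and 6.87% higher by that much. A fold from few reads is imprecise, so the same was read over the 11111 genes whose counting SE is that of 50 reads per library or better, which all 40 members meet. Of these, 1.15% were lower and 0.792% higher by 1.5-fold or more, and 50.5% were below 0. By counting error, 32 of 40 members were called lower and 0 higher, where 6.54% of all genes were called lower and 5.36% higher (8.93% and 7.25% of the precise genes).

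In unstimulated cells the same genes were near parity. Their median was 0.05, 13 of 40 were below 0 (49.7% of all genes, 49.4% of the precise ones), and 0 of 40 were past 1.5-fold in either direction, where 5.66% of all genes were lower and 7.29% higher by that much (0.569% and 0.952% of the 11242 precise genes). By counting error 7 of 40 were called higher (4.70% of all genes, 6.38% of precise ones) and 2 of 40 lower (4.27% and 5.79%). The members called higher were Phf11a (0.49 ± 0.10), Ifit2 (0.33 ± 0.072), Mx1 (0.32 ± 0.049), Isg15 (0.20 ± 0.050), Samhd1 (0.20 ± 0.017), Apobec3 (0.18 ± 0.042) and Bst2 (0.17 ± 0.018). Those called lower were Ifitm2 (−0.26 ± 0.041) and Rsad2 (−0.12 ± 0.026). As deposited, without centring, 1 of 40 ratios, that of Ifitm2, was below 0, because the whole table of unstimulated cells lies 0.19 higher.

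**Figure D1:**
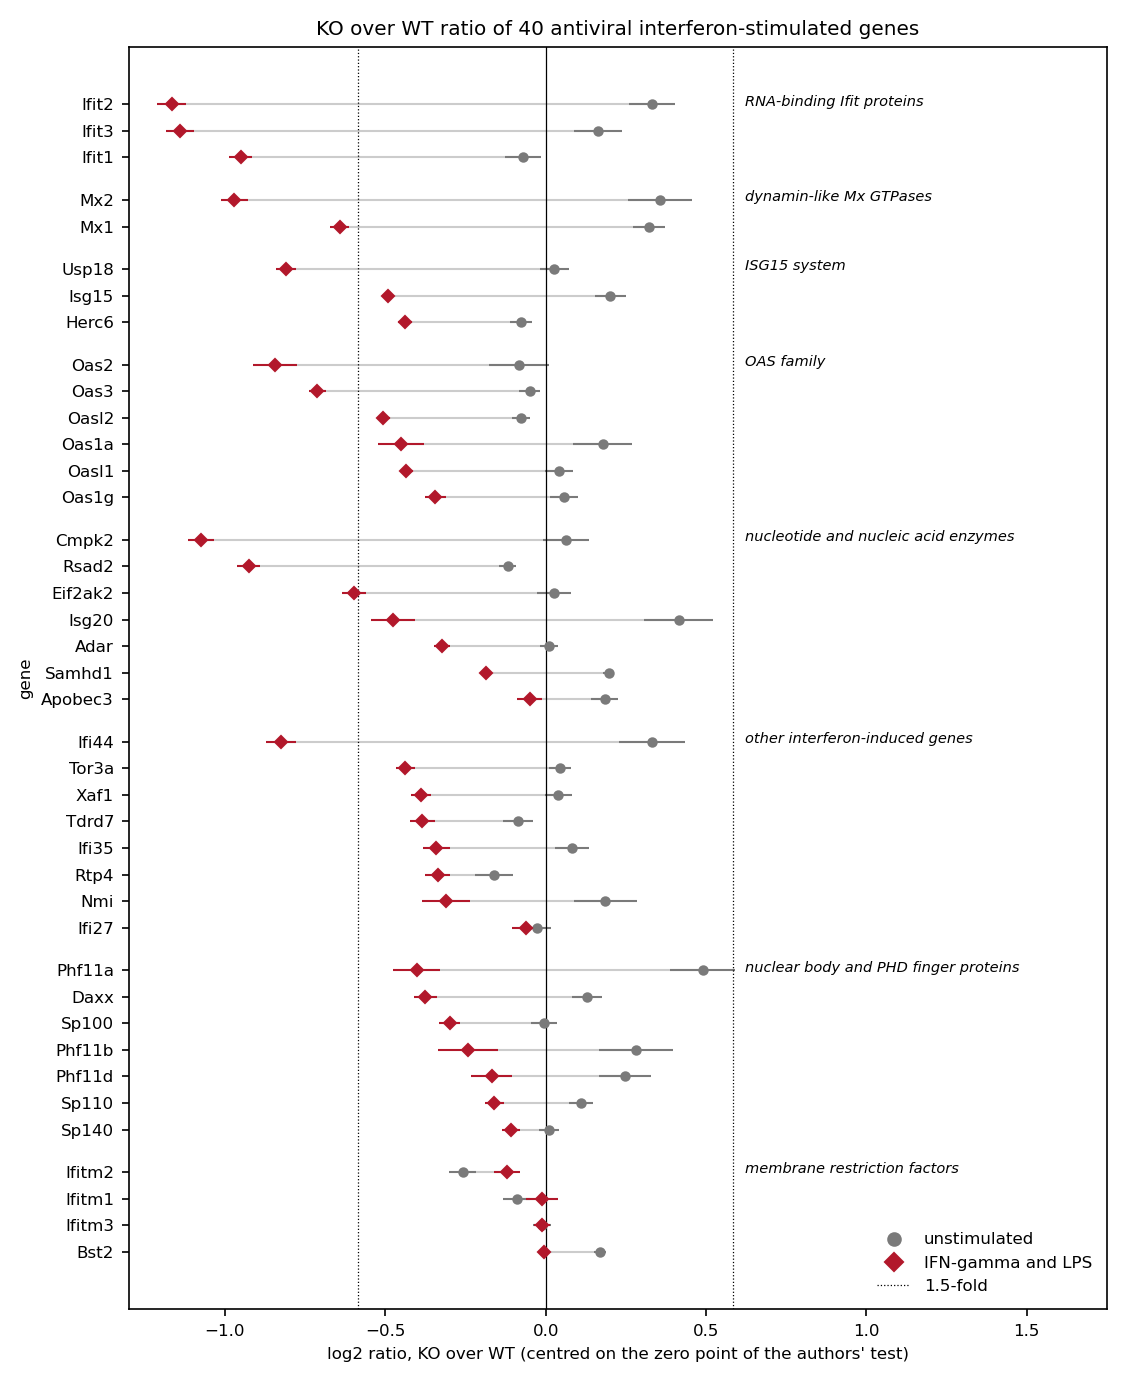
Log2 ratio of KO over WT (x axis) for each of the 40 genes (y axis), grouped by role, in unstimulated cells (grey circles) and after IFN-gamma and LPS (red diamonds); bars are counting SE, an upper limit where the deposited p is at its cap, and dotted lines mark 1.5-fold. The stimulated ratios reach down to −1.17 for Ifit2 and lie left of the unstimulated ones in 37 of 40 genes, while the membrane restriction factors at the bottom stay near 0.

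**Figure D2:**
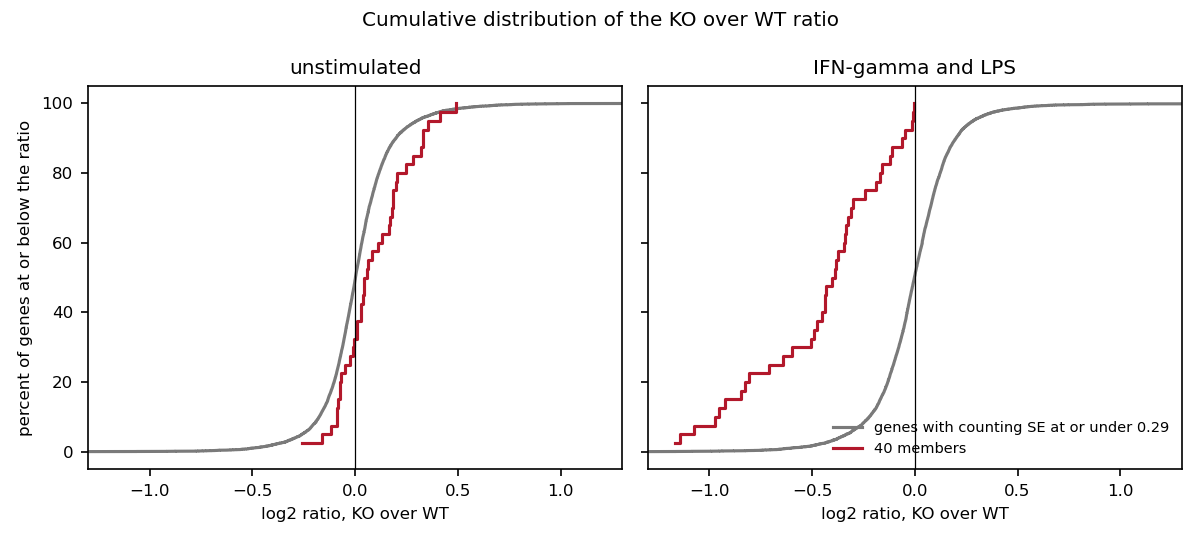
Percent of genes (y axis) at or below a log2 ratio of KO over WT (x axis), for the 40 members (red) and for genes with a counting SE of at most 0.29 on the log2 scale (grey), in each state. In stimulated cells the whole red curve lies left of 0, and in unstimulated cells it runs close to the grey curve and slightly to its right.

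The Ifit proteins bind viral RNA and stop its translation, and their genes stood lowest. Ifit2 was at −1.17 after stimulation, with a counting SE of at most 0.045, so that the KO library held 44.6% of the WT level. Ifit3, whose product forms complexes with those of the other Ifit genes, was at −1.14 (SE at most 0.044), or 45.4%, and Ifit1, which recognises the cap structure of foreign RNA, at −0.95 (SE at most 0.036), or 51.7%. In unstimulated cells Ifit3 (0.16 ± 0.075) and Ifit1 (−0.07 ± 0.057) were not called, and Ifit2 was called higher, as given above. The authors' deposited table marks Ifit2 and Ifit3 as key genes of stimulated cells, at −1.20 and −1.18 as deposited; that choice was made on these libraries and is not independent evidence of direction.

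Oas proteins sense double-stranded RNA and make short oligoadenylates that switch on RNase L, and Oasl1 and Oasl2 are their relatives. All 6 were called lower after stimulation, with a median of −0.48, and 0 of 6 were called in unstimulated cells. Oas2 (−0.84 ± 0.069) and Oas3 (−0.71, SE at most 0.027) were lowest, and these are past 1.5-fold. Oasl2 (−0.51, SE at most 0.019), Oas1a (−0.45 ± 0.072), Oasl1 (−0.43 ± 0.020) and Oas1g (−0.34 ± 0.033) were under 1.5-fold. Oas1a and Oas1g are closely related copies, and reads could be split between them.

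The Mx genes code for dynamin-like GTPases that trap viral ribonucleoproteins. Mx2 was at −0.97 ± 0.043 (51.0% of WT) and Mx1 at −0.64 ± 0.029 (64.1%) after stimulation. Both leaned the other way without it: Mx1 was called higher, and Mx2 was at 0.36 ± 0.099 and not called. RefSeq lists both as transcribed pseudogenes in this strain's genome.

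Isg15 is a ubiquitin-like protein that is joined to other proteins by ligases such as Herc6 and removed by Usp18, which also dampens signalling from the type I interferon receptor. Usp18 was lowest of these after stimulation at −0.81 (SE at most 0.031), or 57.1% of WT. Isg15 was at −0.49 ± 0.019 and Herc6 at −0.44 ± 0.022, and both were called lower. In unstimulated cells Usp18 (0.03 ± 0.045) and Herc6 (−0.08 ± 0.035) were not called.

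Of the 7 enzymes that act on nucleotides and nucleic acids, 6 were called lower after stimulation. Cmpk2, a nucleotide kinase, was at −1.07 (SE at most 0.041) or 47.5% of WT, and its neighbour Rsad2, which codes for viperin and makes a chain-terminating nucleotide, at −0.93 (SE at most 0.035) or 52.6%. Eif2ak2, the RNA-activated kinase PKR, was at −0.60 ± 0.038, just past 1.5-fold. The exonuclease gene Isg20 followed at −0.48 ± 0.067, the RNA-editing enzyme gene Adar at −0.32 ± 0.025 and Samhd1, which degrades deoxynucleotides, at −0.19 ± 0.014. Apobec3, a deaminase that restricts retroviruses, was at −0.05 ± 0.038 and not called. Rsad2 was the single member called lower in both states (2.23% of genes in both tables were), and 5 were called higher without and lower with stimulation (0.189%), with 0 the other way round (0.0877%).

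Of the 8 role groups, the membrane restriction factors were the one with 0 calls in stimulated cells. Ifitm proteins keep viral envelopes from fusing with endosomes, and Bst2 (tetherin) holds budding virus at the cell surface. Ifitm2 was at −0.12 ± 0.040, Ifitm1 at −0.01 ± 0.050, Ifitm3 at −0.01 ± 0.025 and Bst2 at −0.01 ± 0.018. The counting errors of Ifitm3 and Bst2 are below those of members that were called lower, such as Sp140 (0.028) and Mx1 (0.029). In unstimulated cells Ifitm2 was called lower and Bst2 higher, and Ifitm1 (−0.09 ± 0.043) and Ifitm3 (−0.01 ± 0.028) were not called.

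Sp100 and Daxx belong to PML nuclear bodies, Sp110 and Sp140 read chromatin, and Phf11 genes code for PHD finger proteins. Of these 7 genes, 5 were called lower after stimulation and 0 reached 1.5-fold. Phf11a was at −0.40 ± 0.074, Daxx at −0.38 ± 0.036, Sp100 at −0.30 ± 0.033, Sp110 at −0.16 ± 0.031 and Sp140 at −0.11 ± 0.028. Phf11b (−0.24 ± 0.094) and Phf11d (−0.17 ± 0.063) were not called. The 3 Phf11 genes had the opposite sign in unstimulated cells, where Phf11b was at 0.28 ± 0.11 and Phf11d at 0.25 ± 0.081, and Phf11a was the single member that the authors' deposited table marked there, at 0.68 as deposited.

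Among the other members, 7 of 8 were called lower after stimulation. Ifi44 stood apart at −0.83 ± 0.047 (56.4% of WT). The torsin gene Tor3a (−0.44 ± 0.028), the apoptosis-linked Xaf1 (−0.39 ± 0.031), the tudor domain gene Tdrd7 (−0.38 ± 0.038), Ifi35 (−0.34 ± 0.042), Rtp4 (−0.34 ± 0.038) and Nmi (−0.31 ± 0.074), whose product binds that of Ifi35, lay in a narrow band. Ifi27 (−0.06 ± 0.044) was not called. In unstimulated cells 0 of these 8 were called, with Ifi44 highest at 0.33 ± 0.10 and Rtp4 lowest at −0.16 ± 0.059.

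In the authors' deposited table of stimulated cells, the 12 members lower by 1.5-fold are also the 12 members marked as changed, of 159 marked among 15310 genes. Those marks were made on the same libraries, so the match is not independent evidence. Under the thresholds used here, 91 of the 15310 genes were called and lower by 1.5-fold or more. The 12 members make up 13.2% of those 91 genes and 30.0% of the members.

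The difference between the 2 states, stimulated minus unstimulated ratio, is how far the genotype ratio differed between them. Each ratio comes from its own pair of libraries, and the difference has no residual degrees of freedom, so it is given as values. It was below 0 in 37 of 40 members (50.1% of the 14823 genes in both tables, 49.2% of the precise ones) and its median was −0.48, with all genes at −0.00051. In 16 of 40 members it was 1.5-fold or more, where 8.12% of all genes, and 1.13% of the 10984 genes precise in both tables, had such a difference. The shift was greatest for Ifit2 (−1.497, SE at most 0.085), Mx2 (−1.33 ± 0.11), Ifit3 (−1.305, SE at most 0.087), Ifi44 (−1.16 ± 0.11) and Cmpk2 (−1.14, SE at most 0.082). It was above 0 for Ifitm2 (0.14 ± 0.057), Ifitm1 (0.08 ± 0.066) and Ifitm3 (0.00262 ± 0.038). It exceeded 2 counting SE below 0 in 36 members and above 0 in 1, Ifitm2, and 3 were within 2 counting SE.

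Across the 40 members Pearson's r between the ratios of the 2 states was −0.15 and Spearman's rho −0.13. This correlation is across genes of the same 4 libraries and is a description. Over the 10984 genes of good precision r was 0.50.

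**Figure D3:**
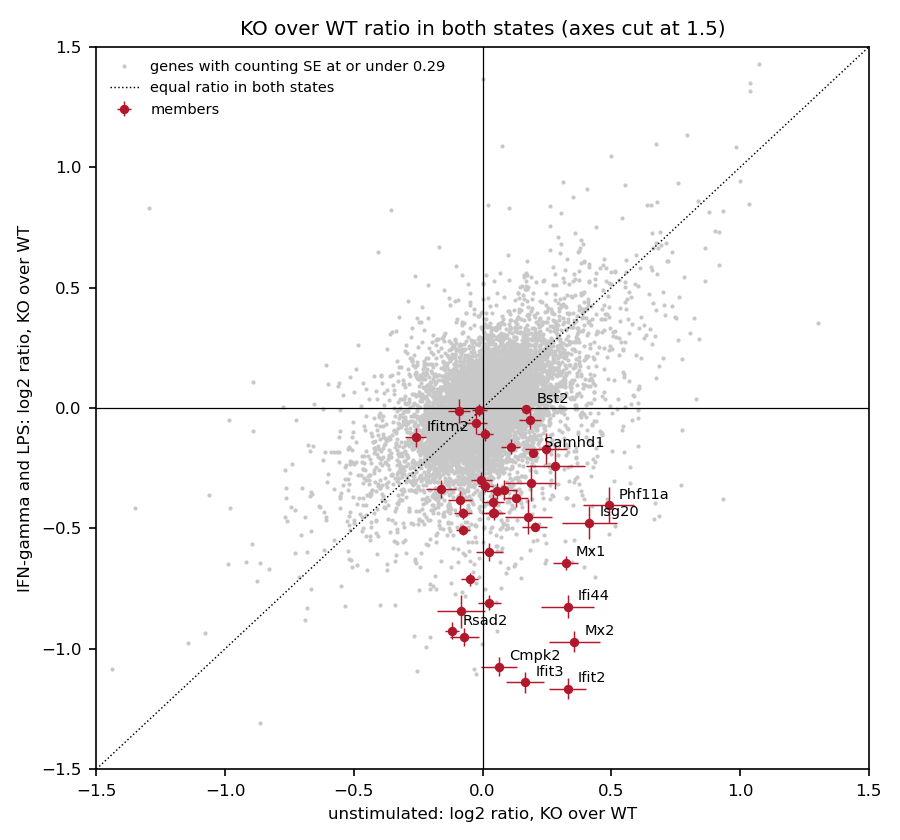
Log2 ratio of KO over WT in unstimulated cells (x axis) against that after IFN-gamma and LPS (y axis) for genes with a counting SE of at most 0.29 in both states (grey points) and for the 40 members (red, bars are counting SE). Members spread from 0.49 (Phf11a) to −0.26 (Ifitm2) along x and lie at or below 0 along y; genes beyond 1.5 on either axis are not shown.

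Several members are neighbours in the genome, and 22 of the 40 fall into 8 loci (positions from RefSeq, GRCm38.p6). At the Ifit locus on chromosome 19 (34550550 to 34650009), the genes between the members had like ratios after stimulation. Ifit3b, listed under an older name, was at −1.16 ± 0.15 and Ifit1bl2 at −0.95 ± 0.14, while the gene next to the locus, Lipa, which codes for lysosomal acid lipase, was at 0.02 ± 0.029. Ifit3 and Ifit3b are near-identical copies whose reads the counting could have split. The Oas locus on chromosome 5 (120730333 to 120907544) holds Oas1b at −0.53 ± 0.059, which was called lower, and Oas1c at −0.33 ± 0.14, which was not. Oas2 and Oas3 at one end of this locus stood lower than Oas1g and Oas1a at the other. Rsad2 and Cmpk2 lie side by side on chromosome 12 (26442743 to 26479837) and had ratios of −0.93 and −1.07. The Ifitm genes share a locus on chromosome 7 (140954837 to 141010744), and 0 of the 3 were called lower after stimulation.

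**Figure D4:**
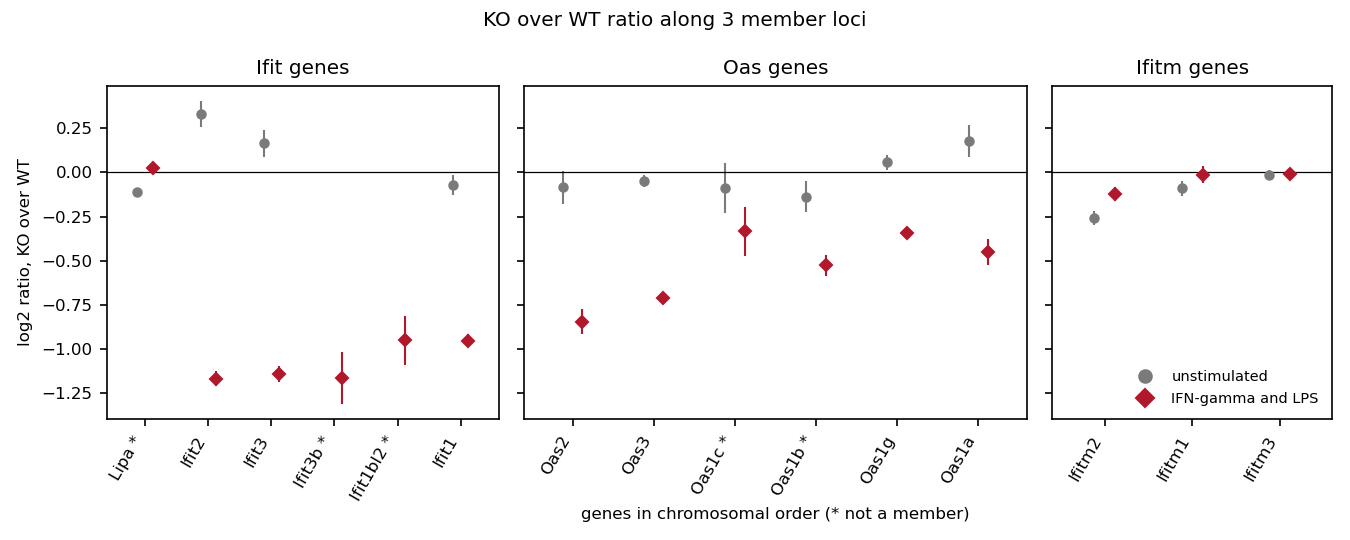
Log2 ratio of KO over WT (y axis) for the genes of the Ifit, Oas and Ifitm loci in chromosomal order (x axis), in unstimulated cells (grey circles) and after IFN-gamma and LPS (red diamonds), with counting SE; an asterisk marks genes that are no members, and points with a counting SE over 0.29 are left out. All Ifit genes shown lie between −0.95 and −1.17 after stimulation with Lipa beside them at 0.02, and the Ifitm genes lie between −0.12 and −0.01.

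Promoters were at hand for 33 of the 40 members (the table runs from 250 bases before to 50 after each start). The ISRE core, searched on both strands, was present in 15 of 33, against 3.92% of the 11920 genes of the stimulated table with a promoter and 3.44% of all 32851 promoters. The core of the GAS (TTC, any 3 bases, GAA) was present in 9 of 33 members and 8.49% of those genes, and AAAG, any 2 bases, AAAG, a comparison motif of the same letters as the ISRE core, in 2 of 33 and 3.14%. Of all promoters, 257 held both the ISRE core and the comparison motif, and in 220 of them the copies overlapped.

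After stimulation the 15 members with the ISRE core had a median of −0.40 and 10 were called lower, and the 18 without it had a median of −0.36 and 16 were called lower. Ifit2 and Cmpk2, among the lowest, had no copy in this window, while Bst2, Ifitm2 and Apobec3, near 0, had at least 1. Across genes that are no members, 14.6% of the 452 with the ISRE core were called lower in stimulated cells, against 6.02% of the 11435 without it. The share was 10.98% for 264 non-member genes that hold the comparison motif and lack the ISRE core. It was 15.7% for the 344 that hold the ISRE core and lack the comparison motif. For the GAS core, 6.58% of 1003 non-member genes with it were called lower, against 6.32% of 10884 without it. The medians of non-member genes with and without the ISRE core were close, at −0.04 and 0.01. In unstimulated cells 4.20% of non-member genes with the ISRE core and 4.27% of those without it were called lower, and 7.52% and 4.61% were called higher. A match is a description of letters and not a bound site.

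The other genes of the pathway were read from 6 lists. Of the precise genes, 8.93% were called lower and 7.25% higher after stimulation, and 5.79% and 6.38% in unstimulated cells. The lists' median counting SE was 0.019 to 0.047 after stimulation, against 0.092 over all genes, so small ratios were called more readily in them. Signal carriers were lower by small steps after stimulation: of 11 genes for interferon-beta, the interferon receptors and the JAK-STAT carriers, 6 were called lower, 0 higher and 0 passed 1.5-fold. Stat2, a transcription factor of the type I interferon response, was lowest at −0.43 ± 0.018. Ifnb1, which codes for interferon-beta, was at 0.28 ± 0.34, too imprecise for a direction, and the receptor gene Ifnar2 was at 0.07 ± 0.024; neither was called. In unstimulated cells 3 of the 10 genes in the table were called lower and 0 higher, and Stat2 (0.04 ± 0.025) was not called.

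Interferon regulatory factors went both ways, with 2 of 8 called lower and 3 higher after stimulation. Irf1 (−0.27 ± 0.017) and Irf2 (−0.16 ± 0.043, not called) were lowest, and Irf5 (0.24 ± 0.014) and Irf8 (0.24 ± 0.013) highest. In unstimulated cells 3 of 8 were called higher and 0 lower, among them Irf5 (0.27 ± 0.013) and Irf8 (0.32 ± 0.017). Of 11 nucleic acid sensors 6 were called lower, 0 higher, and 3 were lower by 1.5-fold or more. Tlr3, a receptor for double-stranded RNA, was at −0.98 ± 0.11 and Ddx58, which codes for RIG-I, at −0.77 ± 0.037; at the other end Tmem173, which codes for STING, was at 0.17 ± 0.045 and Tlr9 at 0.01 ± 0.089, and neither was called. In unstimulated cells 0 of 11 sensors were called.

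Negative regulators were mixed, with 4 of 9 called lower and 2 higher. Rnf125, a ubiquitin ligase that targets RIG-I, was at −1.08 ± 0.23 and Trim21 at −0.50 ± 0.050. The signal inhibitor gene Socs3 was at 0.31 (SE at most 0.012) and called higher, and Ptpn2 at 0.12 ± 0.034 was not called. In unstimulated cells 1 of 9 was called lower and 3 higher, and Rnf125 was at −1.44 ± 0.27 and Socs3 at 0.44 (SE at most 0.021) there.

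The 2 GTPase families that act against intracellular microbes were also lower after stimulation. Guanylate-binding proteins had a median of −0.38, and 10 of 11 were called lower. The lowest were Gbp9 (−0.73, SE at most 0.028) and Gbp2b (−0.50 ± 0.13), and the highest were Gbp11 (−0.16 ± 0.12, not called) and Gbp5 (−0.26 ± 0.013). Immunity-related GTPases had a median of −0.55, and 8 of 9 were called lower, from F830016B08Rik (−0.93 ± 0.11) and Irgm2 (−0.75 ± 0.029) to Tgtp2 (−0.36 ± 0.19, not called) and Irgm1 (−0.33 ± 0.019). In unstimulated cells the medians of these families were −0.03 and 0.19. By 1.5-fold, 1 of 11 guanylate-binding proteins and 4 of 9 immunity-related GTPases were lower after stimulation, beside 12 of 40 antiviral members. Whether these lists differ from the members was not tested.

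**Figure D5:**
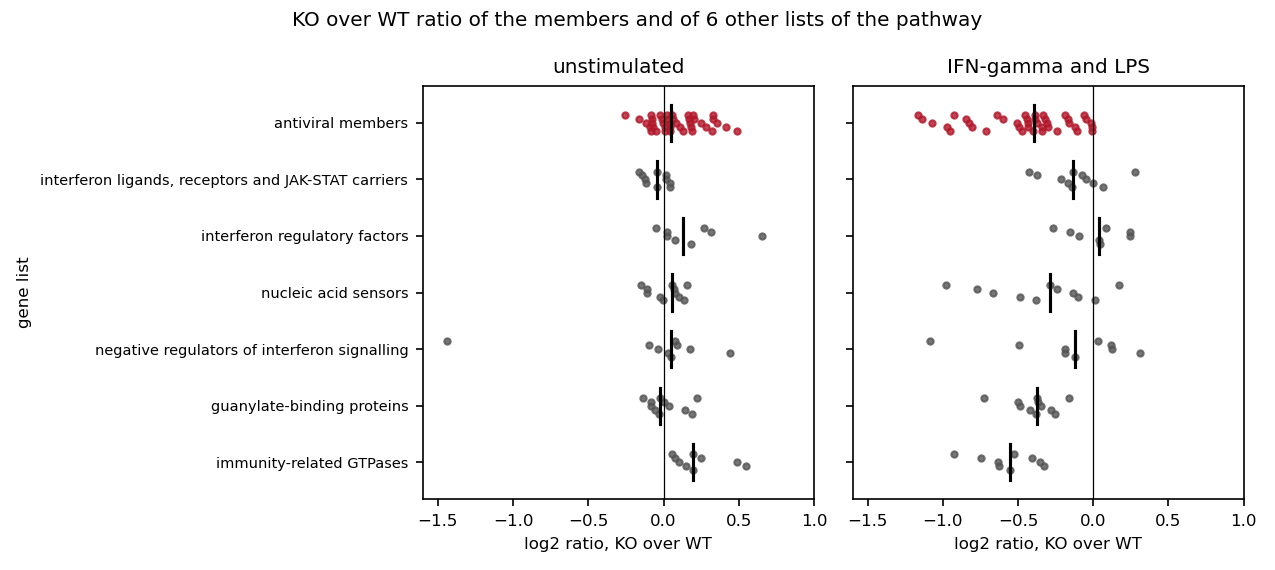
Log2 ratio of KO over WT (x axis) for the 40 members (red) and for the genes of 6 other lists (grey), each point 1 gene and each black bar the list median, in both states. After IFN-gamma and LPS the medians of the members, the guanylate-binding proteins and the immunity-related GTPases are −0.40, −0.38 and −0.55, and that of the interferon regulatory factors is 0.04.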

How the data were processed

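Bone marrow-derived dendritic cells of 2 genotypes and 2 states gave 4 libraries of mRNA, 1 per group, grouped by sample title. Per the labels' protocols, libraries were strand-specific (Illumina TruSeq). The submitters' processing notes name HTSeq 0.6.0, build mm10 and FastQC 0.10.1; no aligner, annotation, strand setting, scaling or test is stated there. The authors deposited 2 tables of KO over WT with a log2 fold change per gene and, per the file headers and the values, a −log10 p-value (capped at 100 and 150). Depth per library is unknown.

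Each deposited log2 ratio was reduced by that of the gene with the p closest to 1 (0.191 in unstimulated and −0.036 in stimulated cells). The counting SE is the centred ratio over the normal deviate of its p. Its highest values, 2.038 and 2.039, are near the 2.040 of 1 read against 1 read, where a further spread term would not show. Among the members the lowest were 0.017 in unstimulated and 0.014 in stimulated cells. A spread term common to all genes could be no larger, so the p-values were read as counting error. P-values were adjusted (Benjamini-Hochberg) over each table, with a threshold of 0.001; sizes were counted at 1.5-fold. Positions and promoters are RefSeq's (GRCm38.p6, the assembly behind mm10), matched by symbol or synonym: 99.4% of genes had a position and 77.9% of each table a promoter. Protein sequences were not used here. The procedure was tested on simulated data (Python 3.11.15, numpy 2.4.6, scipy 1.17.1, pandas 2.3.3). Simulated noise was drawn from the counting SE derived here and held no spread between cultures, so the test covers counting error only. Alternatives were the ratios as deposited, centring on the median gene, other thresholds and subsets of members. Named were all members, by role, and the 2 lowest and 2 highest genes of each list after stimulation, except 1 that is not reported here; genes beside loci, Itgax and the unstimulated value of Stat2 were chosen after their values were seen. The members and lists were chosen with earlier results of these data known.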

Additional observations from a re-analysis of the deposited data

Results flagged for a closer look

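Of the members, 5 were called in opposite directions in the 2 states, higher in the KO library without stimulation and lower after it; this pattern held for 0.189% of the 14823 genes in both tables, and 0 members had the reverse pattern (0.0877% of genes). The difference, stimulated minus unstimulated ratio, was −1.497 for Ifit2, −0.97 for Mx1, −0.89 for Phf11a, −0.69 for Isg15 and −0.38 for Samhd1. These differences were not tested, for want of replicate libraries.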

How the results depend on the processing

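The direction of all 40 stimulated ratios was the same as deposited and when centred on the median gene. Both scales move every stimulated ratio down, because the zero point is −0.036 and the median gene lies at 0.0052. A ratio below 0 could thus not change sign, so this says nothing on stability. Centring on the median gene left 80 of 80 single ratios with the same sign. In 35 of 35 summary values the change was small: medians moved by less than a median counting SE, and counts by at most 1.5-fold. This scale is nearly the main one, since it lowers ratios by 0.0013 without stimulus and by 0.0052 after it. The smallest unstimulated member ratio above 0, that of Sp140, was 0.00997. Such a shift could neither turn a sign nor move a median by a counting SE, so stability was not tested by it. The count of members with a difference between states above 0 went from 3 to 2. A limit on the counting SE removes none of the 40 members, so it says nothing on their stability. The ratios as deposited mattered in unstimulated cells, because that table lies 0.19 higher throughout: the member median became 0.24, 2 members were higher by 1.5-fold or more in place of 0, 1 was called lower in place of 2, and Rsad2 turned from called lower to 0.073. The difference between states then had a median of −0.71, with 28 members lower by 1.5-fold or more and 0 above 0. On that scale the unstimulated medians were 0.15 for receptors and JAK-STAT carriers, 0.32 for interferon regulatory factors, 0.25 for sensors, 0.24 for negative regulators, 0.17 for guanylate-binding proteins and 0.39 for immunity-related GTPases; the stimulated ones were −0.17, 0.0044, −0.32, −0.16, −0.41 and −0.59. A fold of 2 left 3 members lower after stimulation. An adjusted p under 0.05 gave 4 members lower and 13 higher in unstimulated cells. Without the 20 members whose names begin with Ifit, Oas, Phf11, Mx or Sp1, 5 were lower by 1.5-fold and 17 called lower after stimulation. In unstimulated cells 1 of the rest was called lower and 4 higher. Between states 7 of them shifted down by 1.5-fold, and 0 had a difference above 0. Here fewer genes are counted, and the prefix Ifit also takes out Ifitm1, Ifitm2 and Ifitm3, the members with a difference above 0. Without the 4 membrane restriction factors, a choice made after seeing the data, the stimulated median was −0.44, 1 member was called lower in unstimulated cells and 0 had a difference above 0. Between genes with and without the ISRE core the difference of stimulated medians was −0.048, and −0.046 before the start only, −0.041 with 1 spacer base allowed too and −0.036 over precise genes. No paired analysis was possible because each group has 1 library and no label pairs them. Precision is limited by counting error and by the lack of replicates, which leaves the spread between cultures unmeasured.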

Other observations

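The counting SE itself carries some information on abundance, since it shrinks as the reads of a gene grow in number. It was smaller in the stimulated than in the unstimulated table for 37 of 40 members, against 29.6% of all genes, and the exceptions were Rsad2, Ifitm1 and Ifi27. The ratio of stimulated to unstimulated SE had a median of 0.76 over the members and 1.05 over all genes. It was 0.38 for Isg15, 0.43 for Mx2, 0.46 for Oasl1 and 0.46 for Ifi44, and 0.98 for Bst2, 0.99 for Ifitm2 and 1.16 for Ifitm1. Members whose SE shrank most tended to have the lower stimulated ratios, with Spearman's rho of 0.71 over 40 members and 0.84 over the 32 whose deposited p was under its cap. This is a description across genes of the same 4 libraries; for Rsad2 (1.37) and the 7 other members at the cap the stimulated SE is an upper limit.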
